A study of Mus musculus with 18 samples.

Results

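The livers of 6 old female mice that had been given vehicle were compared with the livers of 6 young female mice, gene by gene, by RNA sequencing. The old animals were 24 months of age and had received saline by a schedule that lasted 12 weeks, with dosing 4 times weekly in rounds and pauses of 2 weeks in between; they were culled 3 days after dosing ended. The young animals were 7 weeks of age and the labels list no treatment for them, so differences by age and by handling cannot be told apart. No strain or genotype is stated in the sources used here. The titles give only a group and a replicate number, and each library is taken here as 1 animal. These 12 libraries are part of a series of 18, whose other 6 came from old mice given ouabain, a cardiac glycoside. Of 37620 genes in the table of read counts, 24238 had a count in any of the 12 libraries, and 13736 had at least 1 CPM (a read count scaled to the library's total) in at least 6 of them and were tested.

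The liver differs between the sexes in many of its metabolic genes. In the mouse this pattern appears around puberty and is set largely by the rhythm of growth hormone release, read in hepatocytes through STAT5 and through repressors such as BCL6 in males and CUX2 in females. The liver also makes hepcidin, the hormone that limits iron uptake, under the control of BMP signals from the sinusoidal endothelium, and it secretes most plasma proteins, which puts a steady load on folding in the endoplasmic reticulum. Ageing of the tissue is commonly described with more macrophages and lymphocytes among the hepatocytes.

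Library totals were 8323259 to 11113307 counts, and 3 counts, the limit that a count of 0 allows, were worth 0.27 to 0.36 CPM. On log2 CPM, principal component 1 (39.97% of the variance) put old vehicle livers at 9.71 to 41.1 and young livers at -40.8 to -17.1. Alb, the serum albumin gene, was at 68994, 90242 and 112697 CPM (lowest, median and highest of 6) in old vehicle livers, against 71062, 101512 and 116730 CPM in young livers. Markers of pancreas, a tissue that can be taken along with liver, were nearly absent, with 8 of 14 at 0 in all 12 libraries and a summed level of 9.94 to 22.8 CPM in old vehicle livers, against 11.4 to 17.6 CPM in young livers. Xist, the RNA of the inactive X chromosome, averaged 461 CPM in old vehicle livers and 512 CPM in young livers.

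By edgeR's quasi-likelihood test with Benjamini-Hochberg adjustment, 1999 of 13736 genes (14.6%) passed an adjusted p of 0.05. Of these, 1186 (8.63% of the genes tested) were higher in old vehicle livers and 813 (5.92%) were lower. Large changes were mostly rises: of the 731 genes that passed with over a 2-fold difference (5.32%), 647 were higher and 84 were lower. All 6 old vehicle libraries lay above all 6 young libraries in 613 genes (4.46%) and below them in 348 genes (2.53%). These shares are the background against which the gene groups below are read. The lists were chosen with earlier results of these data known, so an excess over these shares is description and no test. All fold changes below are of old vehicle over young on the log2 scale with approximate standard errors (SE).

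**Figure D1:**
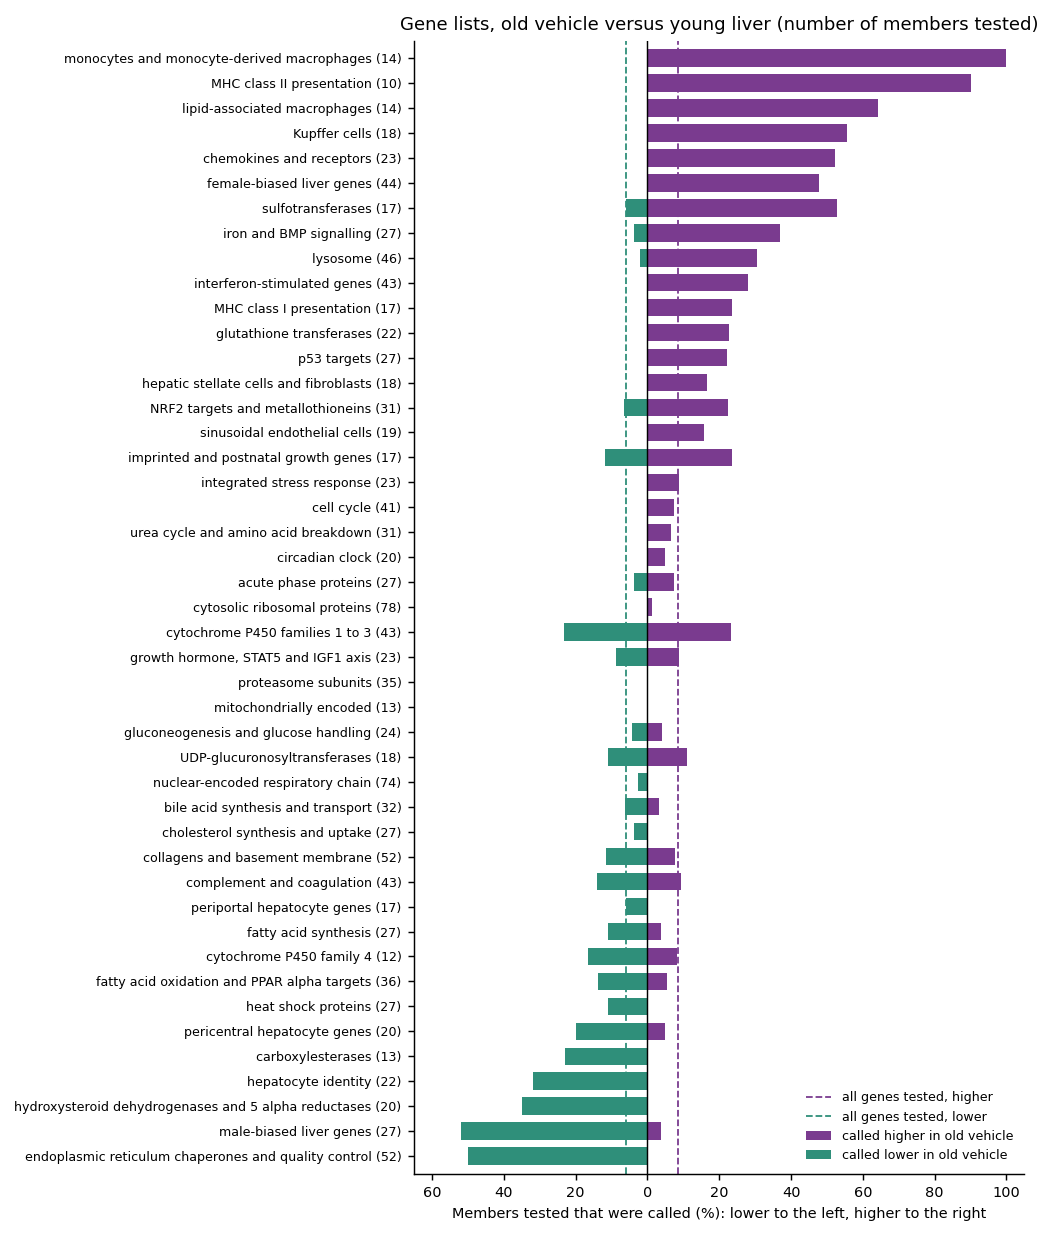
Percentage of the tested members of each gene list that were called higher (bars to the right) or lower (bars to the left) in old vehicle than in young livers, at an edgeR adjusted p under 0.05, for the 45 lists with 10 or more tested members. Dashed lines mark the same percentages over all 13736 genes, 8.63% higher and 5.92% lower; macrophage and MHC class II lists lie far to the right, the monocyte list with 3 members that no young library held at 1 CPM, and the endoplasmic reticulum and male-biased lists far to the left.

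Genes with male-biased liver expression were lower in old vehicle livers, and genes with female-biased expression were higher, although all 12 animals were female. Of 27 male-biased genes tested, 14 fell and 1 rose, with a median log2 fold change of -1.09. Of 44 female-biased genes tested, 21 rose and none fell, with a median of 0.75. Among the 21, 1 had no young library at 1 CPM and entered the test through old vehicle livers alone. Over all genes tested the median was -0.01. In 10 of the 27 male-biased genes every old vehicle library lay below every young one, and in 14 of the 44 female-biased genes every old vehicle library lay above.

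Slco1a1 (ENSMUSG00000041698) fell most; its product carries organic anions into hepatocytes, and it is a classical male-biased gene. It was at 0, 0.916 and 1.22 CPM (lowest, median and highest) in old vehicle livers, against 62.9, 121 and 259 CPM in young livers. The groups were far apart, and the fitted log2 fold change was -7.42 (SE 0.54, edgeR adjusted p = 2.2e-05). The old vehicle median of Slco1a1 lay under 1 CPM, so being tested favoured a fall. Cyp2d9, a male steroid 16 alpha-hydroxylase of the mouse, was at 25.1, 28.8 and 31.9 CPM in old vehicle livers, against 67.6, 108 and 176 CPM in young livers, again without overlap (log2 fold change -1.95, SE 0.18, edgeR adjusted p = 2.72e-05). Nudt7, whose enzyme breaks down coenzyme A in peroxisomes, reached 55.3, 65.3 and 97.5 CPM in old vehicle livers, against 162, 338 and 486 CPM in young livers. It fell by 2.26 on the log2 scale (SE 0.24, edgeR adjusted p = 8.72e-05), with no overlap between the groups. The male-biased gene called in the other direction was Dhrs7, a short-chain dehydrogenase, at 50.8, 58.9 and 77.8 CPM in old vehicle livers, against 36.7, 46.6 and 53.6 CPM in young livers. Its log2 fold change was 0.40 (edgeR adjusted p = 0.0232), and it no longer passed in the fit without old vehicle replicate 3 (adjusted p = 0.0555) and in that without young replicate 5 (adjusted p = 0.055).

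**Figure D2:**
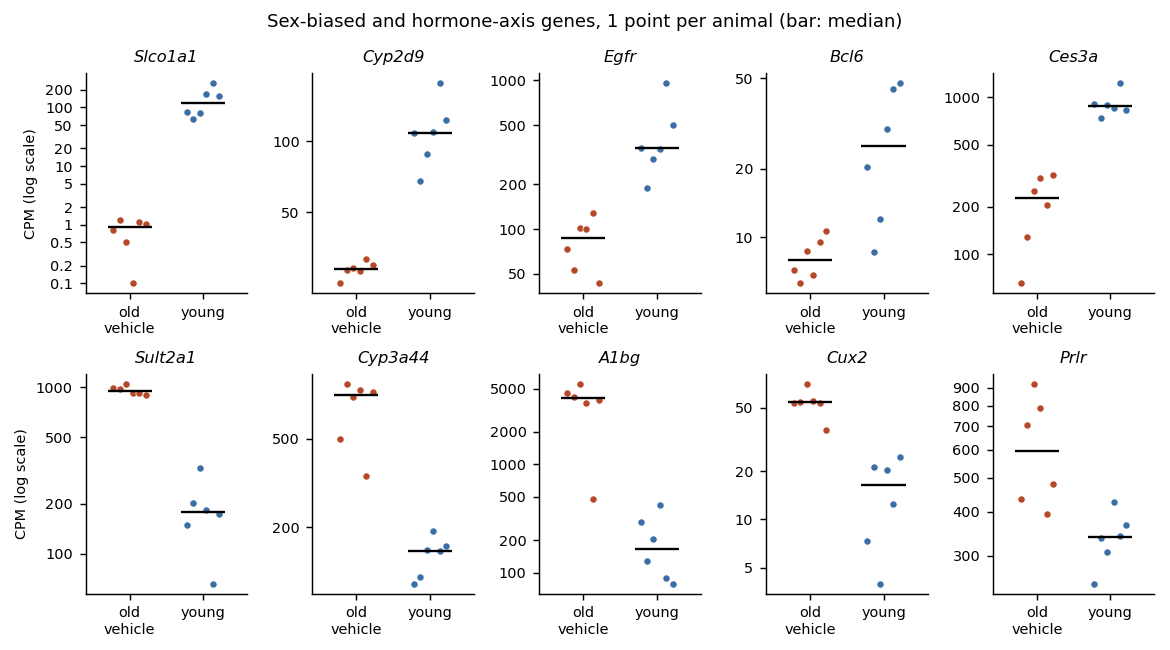
CPM (log scale) of 10 sex-biased and hormone-axis genes in each of the 6 old vehicle and 6 young livers; points are animals, ordered by replicate number, and bars are medians. Slco1a1, Cyp2d9, Egfr and Ces3a separate with old vehicle below young, Bcl6 and Prlr overlap, and Sult2a1, Cyp3a44, A1bg and Cux2 separate with old vehicle above young; 1 old vehicle value of 0 for Slco1a1 is drawn at 0.1.

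The rises included sulfotransferases and cytochromes P450. Sult2a1 (ENSMUSG00000078798), a female-biased sulfotransferase of hydroxysteroids and bile acids, was at 906, 950 and 1056 CPM in old vehicle livers, against 65.8, 177 and 325 CPM in young livers. The old vehicle values were tightly grouped and all above the young ones (log2 fold change 2.40, SE 0.28, edgeR adjusted p = 0.000184). Its relative Sult2a3 was at 49.8, 84.9 and 147 CPM in old vehicle livers, against 0.536, 1.98 and 3.07 CPM in young livers, which is 5.50 on the log2 scale (SE 0.40, edgeR adjusted p = 2.2e-05). In all, 9 of 17 sulfotransferases and their cofactor enzymes rose and 1 fell, and none fell without old vehicle replicate 2, 3 or 5 or young replicate 1, 2, 3 or 5. For 1 of the 9, Sult1e1, no young library reached 1 CPM, so it entered the test through old vehicle livers alone. Sult2a8 went the other way without passing the test, at 5.72, 127 and 240 CPM in old vehicle livers, against 357, 403 and 524 CPM in young livers (log2 fold change -1.72, SE 0.56, edgeR adjusted p = 0.0626). Old vehicle replicate 1 held its lowest value, and without that library the adjusted p was 0.000345, while without old vehicle replicate 6 it was 0.041.

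Cyp3a44, a female-biased member of the 3a family in the mouse, was at 342, 786 and 883 CPM in old vehicle livers, against 112, 158 and 193 CPM in young livers (log2 fold change 2.19, SE 0.22, edgeR adjusted p = 6.38e-05). Cyp3a11, the main 3a enzyme of the mouse liver and no female-biased gene, was at 222, 457 and 1265 CPM in old vehicle livers, against 2157, 2574 and 3491 CPM in young livers. The groups did not overlap for either gene, and Cyp3a11 fell by 2.09 on the log2 scale (SE 0.39, edgeR adjusted p = 0.00467). Families 1 to 3 of the cytochromes P450 were split in this way as a whole: of 43 genes tested, 10 rose and 10 fell, with a median of -0.01. Cyp2c38 (log2 fold change 1.15) was among those that rose and Cyp2u1 (-2.45) and Cyp2c50 (-1.55) among those that fell. Cyp2e1, the ethanol-oxidising enzyme, was at 1431, 3187 and 4386 CPM in old vehicle livers, against 3573, 4446 and 4773 CPM in young livers, and did not pass (log2 fold change -0.47, edgeR adjusted p = 0.177). The sources used here do not give how reads shared by close relatives were counted, and the division of counts among members of the Cyp3a, Cyp2c, Sult2a, Hsd3b, Ces3 and Mup families is uncertain.

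Other large female-biased rises were in A1bg and Sult1e1. A1bg, which encodes a plasma glycoprotein, was at 475, 4100 and 5605 CPM in old vehicle livers, against 78.9, 165 and 423 CPM in young livers (log2 fold change 4.21, SE 0.63, edgeR adjusted p = 0.00144). Old vehicle replicate 5 held the 475 CPM, just above the highest young value. Sult1e1, the oestrogen sulfotransferase, was at 9.02, 16.4 and 308 CPM in old vehicle livers, against 0.182, 0.231 and 0.682 CPM in young livers, whose 6 libraries held 18 counts in all. The 308 CPM belonged to old vehicle replicate 1, and the fitted change of 7.60 on the log2 scale (SE 1.5, edgeR adjusted p = 0.00733) was 5.47 without it. Cd36, a fatty acid transporter with female-biased liver expression, was at 152, 163 and 231 CPM in old vehicle livers, against 51.3, 70.7 and 86.5 CPM in young livers (log2 fold change 1.36, SE 0.13, edgeR adjusted p = 2.52e-05).

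Of 23 tested genes of the growth hormone, STAT5 and IGF1 list, 2 rose and 2 fell (17.4% called), near the 14.6% over all genes. Bcl6, the male-biased repressor, was at 6.28, 7.97 and 10.7 CPM in old vehicle livers, against 8.64, 25.2 and 47.6 CPM in young livers, with overlap at the low end of the young range (log2 fold change -1.73, SE 0.40, edgeR adjusted p = 0.015). Cux2, the female-biased repressor, was at 35.9, 53.9 and 70.7 CPM in old vehicle livers, against 3.96, 16.5 and 24.7 CPM in young livers, without overlap (log2 fold change 1.85, SE 0.36, edgeR adjusted p = 0.00627). Prlr, the prolactin receptor, was at 396, 595 and 927 CPM in old vehicle livers, against 250, 339 and 427 CPM in young livers, and rose by 0.88 on the log2 scale (edgeR adjusted p = 0.0107). Egfr, the receptor of epidermal growth factor, was at 43.3, 86.7 and 128 CPM in old vehicle livers, against 188, 349 and 954 CPM in young livers, and fell by 2.40 on the log2 scale (SE 0.40, edgeR adjusted p = 0.0026). Igf1, the growth factor through which growth hormone acts on other tissues, was at 440, 500 and 598 CPM in old vehicle livers, against 492, 609 and 811 CPM in young livers, and did not pass (log2 fold change -0.29, SE 0.12, edgeR adjusted p = 0.134). Without young replicate 2, 4 genes of the list rose.

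Enzymes that convert steroids by oxidation or reduction were lower: of 20 hydroxysteroid dehydrogenases and 5 alpha reductases tested, 7 fell and none rose, with a median of -0.23. Hsd3b3 was at 26.4, 48.1 and 60.5 CPM in old vehicle livers, against 100, 143 and 164 CPM in young livers (log2 fold change -1.55, SE 0.18, edgeR adjusted p = 0.000151), and Hsd17b2, which inactivates oestradiol and testosterone, fell by 0.90 on the same scale (SE 0.17, edgeR adjusted p = 0.00311). Among 13 carboxylesterases, 3 fell and none rose. Ces3a, a lipid-hydrolysing esterase, was at 65.1, 229 and 318 CPM in old vehicle livers, against 740, 877 and 1232 CPM in young livers, without overlap (log2 fold change -2.10, SE 0.33, edgeR adjusted p = 0.00136). Ces1c, a more abundant relative, was at 3167, 3575 and 3837 CPM in old vehicle livers, against 3320, 3513 and 3746 CPM in young livers, with a log2 fold change of 0.00 (SE 0.09). Major urinary proteins, which are higher in males, took 0.869% ± 0.762 of all counts in old vehicle livers and 2.27% ± 0.917 in young livers (SD, n = 6 each). By an exact two-sided permutation test adjusted over 5 gene classes the difference did not pass (p = 0.0649); young replicate 2 held only 0.517%, and the adjusted p was 0.0108 without it and 0.0271 without old vehicle replicate 4.

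Hepcidin and the BMP-responsive genes around it were higher in old vehicle livers. Of 27 genes of iron handling and BMP signalling tested, 10 rose and 1 fell, with a median of 0.27. Hamp, which encodes hepcidin, was at 694, 1177 and 2051 CPM in old vehicle livers, against 108, 261 and 772 CPM in young livers (log2 fold change 1.80, SE 0.43, edgeR adjusted p = 0.0172). Its ranges overlapped, since young replicate 1 at 772 CPM exceeded old vehicle replicate 5 at 694 CPM. Id1, a direct target of BMP signals, was at 11, 23.2 and 37 CPM in old vehicle livers, against 2.23, 4.23 and 9.55 CPM in young livers, without overlap (log2 fold change 2.22, SE 0.38, edgeR adjusted p = 0.00258). Id3 rose by 1.43 on the log2 scale (SE 0.33, edgeR adjusted p = 0.0141). Atoh8, a transcription factor of the hepcidin pathway, and Smad6, which damps BMP signals, rose as well, with log2 fold changes of 0.93 (SE 0.21, edgeR adjusted p = 0.00795) and 0.77 (SE 0.17, edgeR adjusted p = 0.00849).

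**Figure D3:**
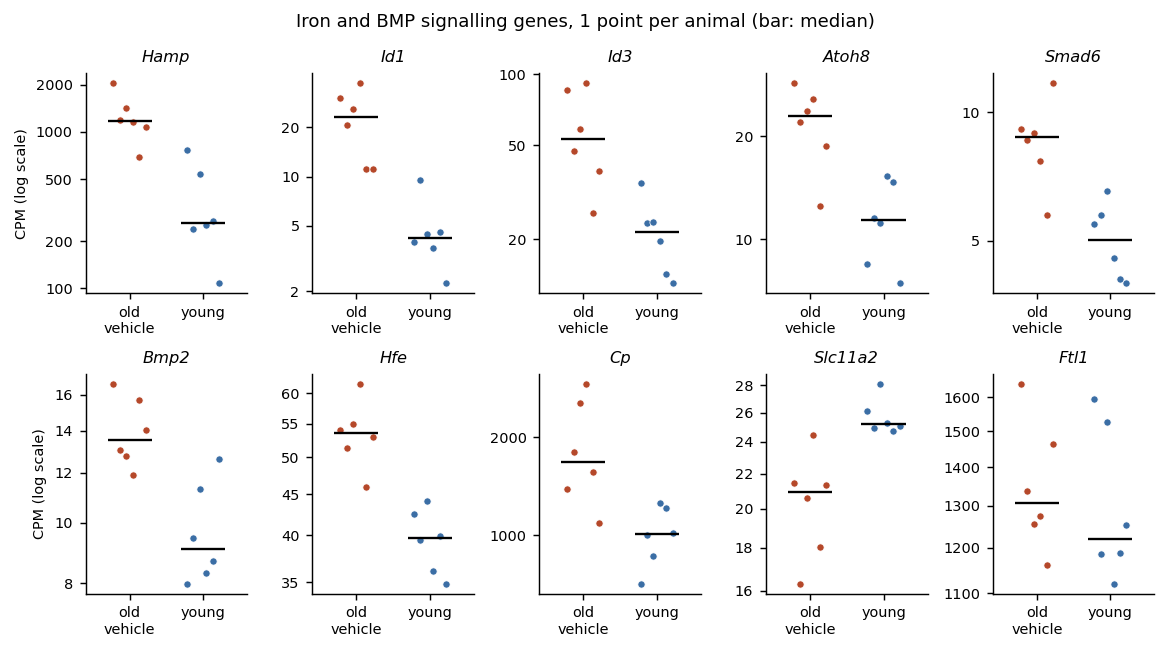
CPM (log scale) of 10 genes of iron handling and BMP signalling in each of the 6 old vehicle and 6 young livers; points are animals and bars are medians. Id1 and Hfe lie wholly above the young values in old vehicle livers, Slc11a2 wholly below, Hamp, Id3, Atoh8, Smad6, Bmp2 and Cp overlap partly, and Ftl1 overlaps throughout.

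Upstream of these, Bmp2, a ligand made by liver endothelium, was at 11.9, 13.5 and 16.7 CPM in old vehicle livers, against 7.99, 9.07 and 12.7 CPM in young livers, a small rise with overlap (log2 fold change 0.53, SE 0.13, edgeR adjusted p = 0.0137). The summed level of 20 endothelial markers, Bmp2 among them, was 378 to 496 CPM in old vehicle livers, against 405 to 498 CPM in young livers. Hfe, a membrane protein needed for the hepcidin response to iron, was at 45.9, 53.5 and 61.7 CPM in old vehicle livers, against 34.9, 39.7 and 44.2 CPM in young livers, without overlap (log2 fold change 0.44, SE 0.09, edgeR adjusted p = 0.00339). Cp, the copper-bearing ferroxidase of plasma, rose by 0.90 on the log2 scale (SE 0.22, edgeR adjusted p = 0.0156). Slc11a2, an importer of ferrous iron, was at 16.3, 21.0 and 24.5 CPM in old vehicle livers, against 24.8, 25.2 and 28.1 CPM in young livers. It was the one gene of the list that fell (log2 fold change -0.34, SE 0.10, edgeR adjusted p = 0.0278), and it no longer passed without old vehicle replicate 2 (adjusted p = 0.0627), 3 (0.0534) or 5 (0.0612) or young replicate 3 (0.0694). The abundant iron carriers did not pass: Trf, transferrin, had a log2 fold change of 0.15 (edgeR adjusted p = 0.666) and Ftl1, the ferritin light chain, one of 0.05 (edgeR adjusted p = 0.835). Id3 is also on the Kupffer cell list, whose summed level was 848 to 2822 CPM in old vehicle livers, against 576 to 759 CPM in young livers, and the part of these cells in the iron genes was not tested.

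Folding and quality-control genes of the endoplasmic reticulum were lower as a group. Of 52 tested, 26 fell and none rose, with a median of -0.35; Derl3 had no old vehicle library at 1 CPM. In 15 of the 52 every old vehicle library lay below every young one. The count of falls was 19 to 30 when single libraries were left out. Hspa5 (ENSMUSG00000026864), which encodes the chief chaperone BiP, was at 447, 698 and 869 CPM in old vehicle livers, against 906, 1034 and 2025 CPM in young livers, without overlap (log2 fold change -0.84, SE 0.21, edgeR adjusted p = 0.0144). Dnajb11, its co-chaperone, was at 67.8, 84.4 and 109 CPM in old vehicle livers, against 120, 137 and 194 CPM in young livers, and Uggt1, which senses misfolded glycoproteins, was at 40.9, 52.3 and 66.4 CPM in old vehicle livers, against 72.6, 83.8 and 103 CPM in young livers. Both fell without overlap, by 0.76 (SE 0.13, edgeR adjusted p = 0.00128) and 0.68 (SE 0.12, edgeR adjusted p = 0.0014) on the log2 scale. Txndc5, a disulphide isomerase, was at 123, 152 and 167 CPM in old vehicle livers, against 196, 213 and 230 CPM in young livers (log2 fold change -0.54, SE 0.09, edgeR adjusted p = 0.0011).

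**Figure D4:**
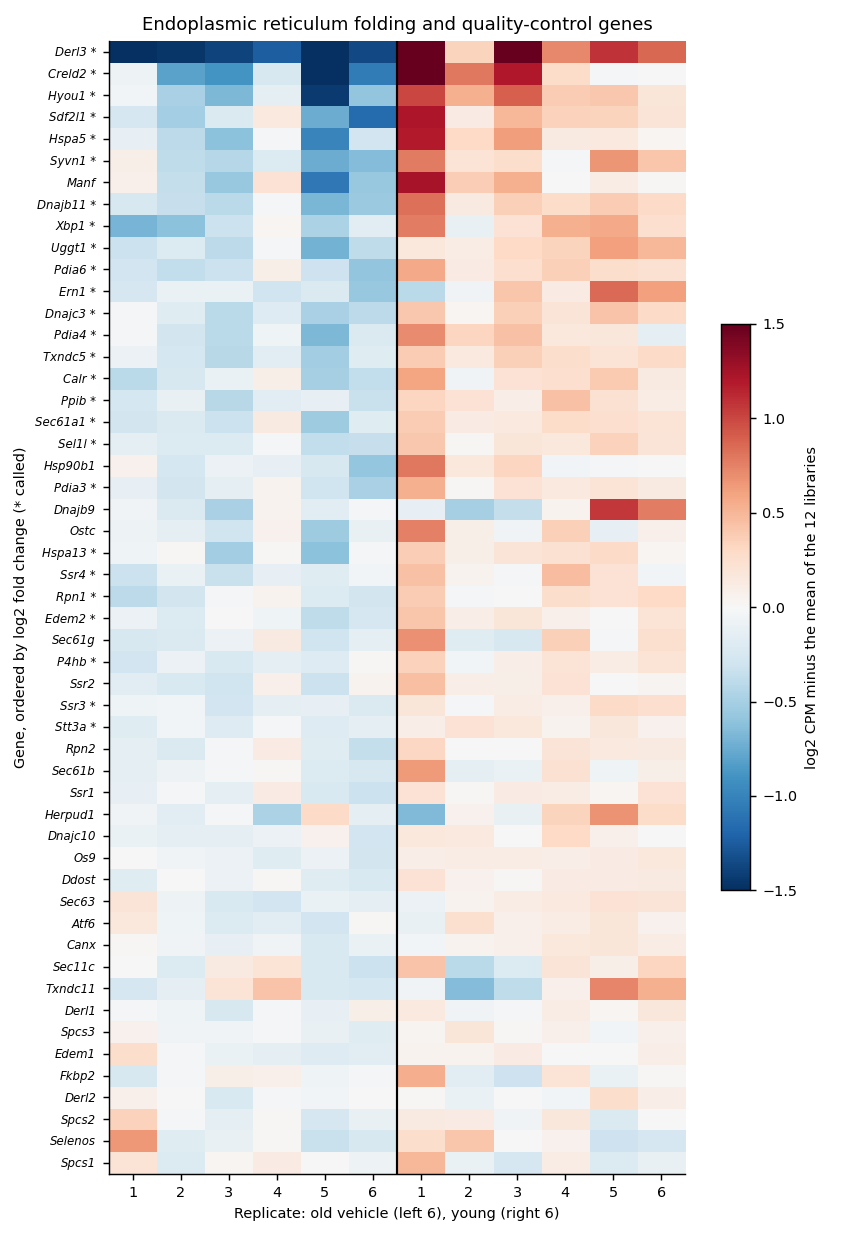
Log2 CPM of 52 endoplasmic reticulum genes in each library, minus the gene's mean over the 12 libraries, with 6 old vehicle livers on the left and 6 young livers on the right; rows run from the most negative fold change at the top, and an asterisk marks genes called at an edgeR adjusted p under 0.05. The median of the 52 genes was -0.25 to -0.02 in old vehicle livers and 0.07 to 0.38 in young livers, highest in young replicate 1; colours are clipped at the ends of the scale.

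Young replicate 1 held the highest value of Hspa5 and of Derl3, a component of the channel for degrading misfolded proteins. Derl3 was at 0.703, 0.781 and 0.96 CPM in old vehicle livers, against 3.82, 6.23 and 34.3 CPM in young livers. Its fitted change of -3.85 on the log2 scale (SE 0.62, edgeR adjusted p = 0.00192) was -3.14 without young replicate 1. Xbp1, the transcription factor of the folding response, was at 111, 137 and 183 CPM in old vehicle livers, against 167, 238 and 308 CPM in young livers, and fell by 0.75 on the log2 scale (SE 0.15, edgeR adjusted p = 0.00419). Derl3 and Xbp1 are also known from plasma cells. Immunoglobulin genes took 0.0161% of counts in old vehicle livers and 0.00127% in young livers (exact two-sided permutation test, adjusted over 5 classes, p = 0.0108). The part of plasma cells in the values of Derl3 and Xbp1 was not tested. Hsp90b1 and Canx, abundant chaperones that did not pass, had log2 fold changes of -0.43 (edgeR adjusted p = 0.0704) and -0.18 (edgeR adjusted p = 0.155).

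Many genes of this response carry in their promoters the endoplasmic reticulum stress element, the letters CCAAT and CCACG with 9 bases of any kind between them, which ATF6 and XBP1 are known to bind together with NF-Y. It was searched on both strands from 250 bases before to 50 bases after the start sites in a RefSeq table of promoters (GRCm38.p6). It occurred in 7 of the 23 genes called lower that had a promoter there (30.4%) and in 2 of the 19 list members not called lower (10.5%). That made 9 of all 42 list members with a promoter (21.4%), against 19 of 9523 tested genes (0.2%) and 37 of 27025 genes in the table (0.137%). The list was written from known genes of this response, so a high share in it was set in advance and is no result of these data. A second motif, TGACGTGG, was found in 2 of the 42 list members (4.76%) and in 193 of all genes (0.714%), and no list member held both. The 7 matches among genes called lower are shown because they let the shared letters be compared; capitals mark the fixed letters of the motif, and each window is given 5′ to 3′ on the strand of its gene and lies before the start site. In the first 4 the motif reads forward, and in the last 3 it reads on the opposite strand, so that its capitals begin with CGTGG.
Hspa5: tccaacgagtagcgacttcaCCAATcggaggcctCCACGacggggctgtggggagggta
Dnajc3: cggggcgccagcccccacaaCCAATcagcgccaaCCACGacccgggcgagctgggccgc
Pdia6: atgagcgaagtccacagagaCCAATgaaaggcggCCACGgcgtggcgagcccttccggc
Syvn1: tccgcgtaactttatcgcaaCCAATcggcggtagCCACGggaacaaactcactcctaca
Derl3: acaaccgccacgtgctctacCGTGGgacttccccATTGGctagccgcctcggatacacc
Calr: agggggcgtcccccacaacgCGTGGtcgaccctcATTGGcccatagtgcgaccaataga
Creld2: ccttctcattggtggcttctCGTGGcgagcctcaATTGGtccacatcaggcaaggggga

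In GRCm38.p6 the windows lie at chr2:34772005-34772063 (Hspa5, plus strand), chr14:118937807-118937865 (Dnajc3, plus), chr12:17266471-17266529 (Pdia6, plus), chr19:6046512-6046570 (Syvn1, plus), chr10:75893222-75893280 (Derl3, plus), chr8:84847055-84847113 (Calr, minus) and chr15:88819500-88819558 (Creld2, plus). Pdia6, Syvn1, Calr and Creld2 were named after their values were seen, because they carry the motif. Their log2 fold changes were -0.59 for Pdia6, a disulphide isomerase, -0.78 for Syvn1, a ubiquitin ligase of the degradation channel, -0.51 for Calr, the lectin chaperone calreticulin, and -1.74 for Creld2, a secreted stress protein. Dnajc3, a co-chaperone of BiP, had -0.56 (SE 0.10, edgeR adjusted p = 0.00184). Creld2 was at 17.7, 29.3 and 50.5 CPM in old vehicle livers, against 52.1, 78.6 and 274 CPM in young livers (edgeR adjusted p = 0.024), and it missed the threshold without old vehicle replicate 2 (adjusted p = 0.0524) or 3 (adjusted p = 0.0555). Hsp90b1 and Canx held the motif as well and were not called, as given above. A match describes letters in these windows and is no measurement of binding.

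Over all 17 markers of monocytes and monocyte-derived macrophages, tested or not, the summed level was 246 to 679 CPM in old vehicle livers, against 104 to 140 CPM in young livers. Of these, 14 were abundant enough to test and were called higher, but 3 of the 14 had no young library at 1 CPM and entered the test through old vehicle livers alone, so the count is partly set by the filter. In bulk tissue, more cells of a type and more RNA per cell cannot be told apart. Ms4a7, a membrane protein of recruited macrophages, is 1 of the 3 without a young library at 1 CPM, so being tested already favoured a rise. It was at 2.62, 5.09 and 7.29 CPM in old vehicle livers, against 0.39, 0.607 and 0.857 CPM in young livers (log2 fold change 3.05, SE 0.30, edgeR adjusted p = 2.72e-05). Cx3cr1, the fractalkine receptor, rose by 2.17 (SE 0.27, edgeR adjusted p = 0.000151), and Lyz2, lysozyme of the myeloid line, by 1.92 (SE 0.27, edgeR adjusted p = 0.000831). The groups did not overlap for these genes.

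Markers of resident macrophages rose in part. Of 18 Kupffer cell genes tested, 10 rose and none fell, with a median of 1.43. Vsig4, a complement receptor of Kupffer cells, was at 27.1, 51.3 and 153 CPM in old vehicle livers, against 16.0, 17.99 and 22.7 CPM in young livers (log2 fold change 1.87, SE 0.38, edgeR adjusted p = 0.00764). Cd5l, which resident macrophages secrete, was at 115, 171 and 566 CPM in old vehicle livers, against 54.9, 76.3 and 100.8 CPM in young livers (log2 fold change 1.69, SE 0.39, edgeR adjusted p = 0.0151). Lipid-associated macrophage genes rose in 9 of 14, but 2 of the 9 had fewer than 3 young libraries at 1 CPM, so being tested favoured a rise in these. Among the 9 was Pla2g7, a phospholipase (log2 fold change 2.08, SE 0.23, edgeR adjusted p = 6.71e-05). Gpnmb, a glycoprotein of lipid-laden macrophages and 1 of those 2, was at 1.15, 2.35 and 10.5 CPM in old vehicle livers, against 0, 0.253 and 1.03 CPM in young livers. The log2 fold change of Gpnmb was 3.10 (SE 0.70, edgeR adjusted p = 0.0106) and 2.42 without old vehicle replicate 1.

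**Figure D5:**
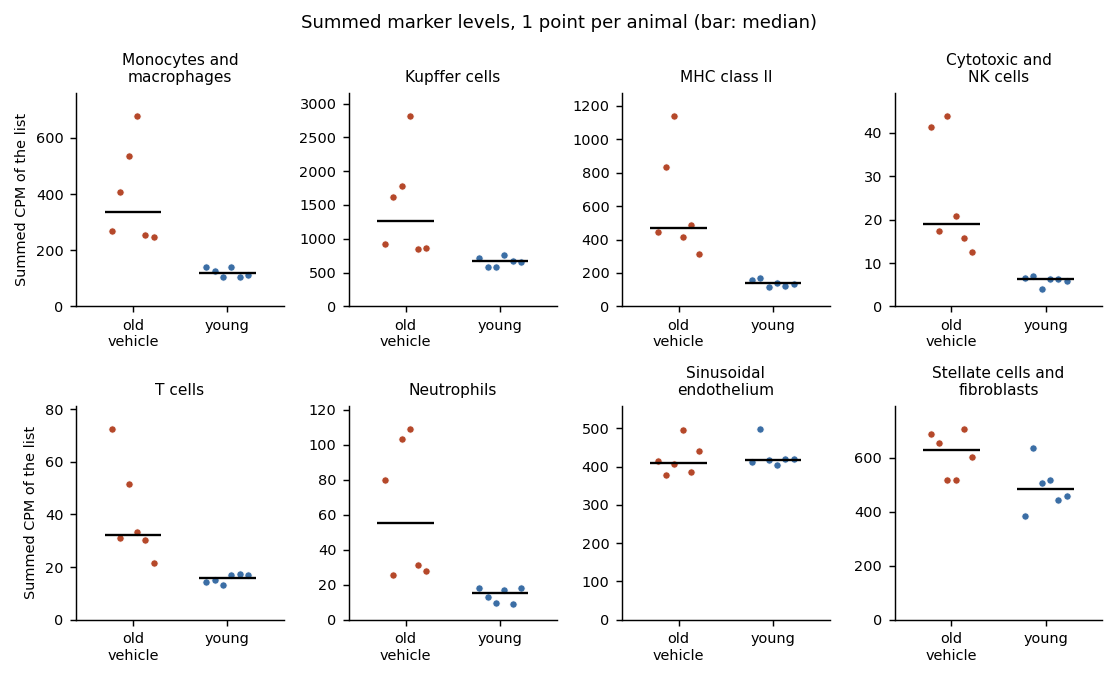
Summed CPM of 8 marker lists in each of the 6 old vehicle and 6 young livers, on a linear scale from 0; points are animals and bars are medians. Monocyte and macrophage, Kupffer, MHC class II, cytotoxic, T cell and neutrophil markers lie above the young values in all 6 old vehicle livers with a wide spread, and endothelial and stellate markers overlap.

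Antigen presentation by MHC class II rose in 9 of 10 genes tested, with a median of 1.81. H2-Aa, a class II chain, was at 44.9, 81.7 and 188 CPM in old vehicle livers, against 15.8, 19.3 and 28.9 CPM in young livers (log2 fold change 2.27, SE 0.34, edgeR adjusted p = 0.00138). Class I genes gave fewer calls: 4 of 17 rose, a count that was 1 without young replicate 5, and 2 without old vehicle replicate 3 or 5 or young replicate 3, 4 or 6. B2m, the common light chain of class I, was at 1301, 1440 and 2093 CPM in old vehicle livers, against 1143, 1204 and 1479 CPM in young livers, and did not pass (log2 fold change 0.30, SE 0.12, edgeR adjusted p = 0.129). Of 43 interferon-stimulated genes, 12 rose and none fell, with a median of 0.52, and 19 rose in the fit without old vehicle replicate 6. Gbp2, an interferon-induced GTPase, was at 15.5, 20.8 and 60.2 CPM in old vehicle livers, against 4.29, 6.49 and 9.55 CPM in young livers (log2 fold change 1.97, SE 0.35, edgeR adjusted p = 0.003). Iigp1, another interferon-induced GTPase, was at 227, 242 and 696 CPM in old vehicle livers, against 253, 322 and 364 CPM in young livers (log2 fold change 0.08, edgeR adjusted p = 0.878). Old vehicle replicate 3 held the highest value of H2-Aa, B2m, Gbp2 and Iigp1.

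Most lymphoid markers were too low to test. Over all 22 T cell genes the summed level was 21.6 to 72.5 CPM in old vehicle livers, against 13.2 to 17.5 CPM in young livers, and over all 18 cytotoxic and natural killer genes it was 12.5 to 44.0 CPM in old vehicle livers, against 3.96 to 7.09 CPM in young livers. Only 4 genes of each list were tested, and 3 of those T cell genes and 2 of those cytotoxic genes had fewer than 3 young libraries at 1 CPM, so being tested already favoured a rise and their calls are not counted here. Of 16 B cell genes 6 were tested and 2 rose, Bank1 and Ltb; the count was 1 without old vehicle replicate 2 or 4 or young replicate 3, 4, 5 or 6, and 5 without old vehicle replicate 5. Ccl5, a chemokine of cytotoxic lymphocytes, was at 3.56, 6.71 and 12.1 CPM in old vehicle livers, against 0.496, 0.872 and 1.37 CPM in young livers (log2 fold change 3.02, SE 0.38, edgeR adjusted p = 0.000236). Its young median lay under 1 CPM, so for Ccl5 too being tested favoured a rise. Cd8a, the co-receptor of cytotoxic T cells, did not reach the level for testing, with 98 counts in old vehicle livers and 12 in young livers. Among 23 chemokines and their receptors tested, 12 rose and none fell, 5 of the 12 with fewer than 3 young libraries at 1 CPM. The 12 included Ccl2, which draws monocytes and is 1 of those 5, at 2.25, 3.50 and 5.17 CPM in old vehicle livers, against 0.114, 0.462 and 1.18 CPM in young livers (log2 fold change 2.65, SE 0.37, edgeR adjusted p = 0.000326). Cxcr4, the receptor for CXCL12, rose by 2.97 (SE 0.44, edgeR adjusted p = 0.00066). Cd207, langerin, which marks some dendritic cells, was at 3.14, 9.65 and 41.8 CPM in old vehicle livers, against 1.85, 2.19 and 2.96 CPM in young livers. Its log2 fold change of 2.66 (edgeR adjusted p = 0.0169) was 1.97 without old vehicle replicate 4.

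Lysosomal genes rose in 14 of 46 and fell in 1, with a median of only 0.14. Ctss, a cathepsin of antigen-presenting cells that is also on the MHC class II list, rose by 1.90 on the log2 scale (SE 0.28, edgeR adjusted p = 0.00118). Npc2, the cholesterol carrier of the lysosome, rose by 0.48 (SE 0.09, edgeR adjusted p = 0.00325), and Ctsf, a cathepsin, fell by 0.33 (SE 0.08, edgeR adjusted p = 0.0156). The part of macrophages in the lysosomal and MHC class II values was not tested.

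Of 19 sinusoidal endothelial genes tested 3 rose (15.8%), and of 18 stellate cell and fibroblast genes 3 rose (16.7%), with none lower and medians of 0.00 and 0.26, where 8.63% of all genes rose. Of 52 collagen and basement membrane genes, 4 rose and 6 fell (19.2% called, against 14.6% of all genes), and 10 fell in the fit without young replicate 1. Dcn, the proteoglycan decorin, was at 172, 228 and 279 CPM in old vehicle livers, against 107, 131 and 171 CPM in young livers (log2 fold change 0.79, SE 0.14, edgeR adjusted p = 0.00177), and Bgn, biglycan, rose by 0.71 (SE 0.11, edgeR adjusted p = 0.000831). Col4a2, a basement membrane collagen, was at 10.3, 12.2 and 15.8 CPM in old vehicle livers, against 16.6, 21.2 and 32.4 CPM in young livers, and fell by 0.80 (SE 0.16, edgeR adjusted p = 0.00366). The fibrillar collagens of scar tissue did not pass: Col1a1 was at 7.40, 11.2 and 20.2 CPM in old vehicle livers, against 7.41, 10.3 and 22.3 CPM in young livers (log2 fold change -0.08, SE 0.29, edgeR adjusted p = 0.889), and Col3a1 was at -0.69 on the log2 scale (SE 0.30, edgeR adjusted p = 0.146).

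Of 22 genes that define hepatocytes, 7 fell, none rose and 15 did not pass, with a median of -0.21. Ttr, the thyroid hormone and retinol carrier, was at 2869, 4125 and 4898 CPM in old vehicle livers, against 5123, 5775 and 6189 CPM in young livers (log2 fold change -0.47, SE 0.13, edgeR adjusted p = 0.0207). Fgb, a chain of fibrinogen, fell by 0.60 (SE 0.16, edgeR adjusted p = 0.0179). Serpina3k, a secreted protease inhibitor, was at 1697, 1973 and 2821 CPM in old vehicle livers, against 3475, 4927 and 9245 CPM in young livers, without overlap (log2 fold change -1.42, SE 0.22, edgeR adjusted p = 0.000814). Of 43 complement and coagulation genes, 6 fell, among them C8a and C8b, hepatocyte components of the membrane attack complex, and 4 rose, among them C1qc, which macrophages make and which is also on the Kupffer cell list. C8a was at 27.5, 56.0 and 303 CPM in old vehicle livers, against 312, 500 and 670 CPM in young livers; its log2 fold change was -2.38 (SE 0.58, edgeR adjusted p = 0.02) and -3.28 without old vehicle replicate 5.

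Of 27 genes of fatty acid synthesis tested, 1 rose and 3 fell (14.8% called, near the 14.6% over all genes). Among single genes of lipid metabolism, the regulators Mlxipl and Srebf1 fell. Mlxipl, the glucose-sensing factor ChREBP, was at 212, 249 and 262 CPM in old vehicle livers, against 279, 366 and 420 CPM in young livers (log2 fold change -0.55, SE 0.10, edgeR adjusted p = 0.00209). Srebf1, the insulin-responsive factor SREBP-1, fell by 0.80 (SE 0.16, edgeR adjusted p = 0.00346), while Fasn, their shared target, did not pass (log2 fold change -0.58, SE 0.27, edgeR adjusted p = 0.167). Of 36 genes of fatty acid oxidation, 5 fell and 2 rose (19.4% called, against 14.6% of all genes). The number that fell was 14 without old vehicle replicate 6, and 2 without old vehicle replicate 3 or young replicate 5. It was 3 without old vehicle replicate 2, 4 or 5 or young replicate 3 or 6. Of 27 genes of cholesterol synthesis and uptake, 1 was called lower and none higher.

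Among single metabolic genes, Noct, a circadian RNA-processing enzyme, was at 384, 570 and 1117 CPM in old vehicle livers, against 125, 164 and 236 CPM in young livers (log2 fold change 1.91, SE 0.23, edgeR adjusted p = 0.000212). It was the only one of 20 clock genes tested that passed. Got1, a cytosolic aminotransferase, was at 320, 488 and 783 CPM in old vehicle livers, against 158, 241 and 307 CPM in young livers (log2 fold change 1.05, SE 0.22, edgeR adjusted p = 0.00633). Targets of NRF2, the factor of oxidative defence, rose in 7 of 31 and fell in 2, with 3 rises without young replicate 5 and 4 without old vehicle replicate 2 or young replicate 4 or 6. Nqo1, a quinone reductase, was at 12.3, 16.8 and 19.8 CPM in old vehicle livers, against 6.38, 7.80 and 11.6 CPM in young livers (log2 fold change 0.93, SE 0.16, edgeR adjusted p = 0.00157). Gstm2, a glutathione transferase, rose by 0.89 (SE 0.11, edgeR adjusted p = 0.000151).

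Genes for the basic machinery of the cell lay near or below the background of 14.6% called. None of 35 proteasome subunits passed, 2 of 74 nuclear-encoded respiratory chain genes fell, and none of 13 mitochondrially encoded genes passed. Mitochondrially encoded genes took 5.88% of counts in old vehicle livers and 5.88% in young livers. Cytosolic ribosomal protein genes took 1.62% of counts in old vehicle livers and 1.37% in young livers, a difference that did not pass an exact two-sided permutation test adjusted over 5 classes (p = 0.0649) but had an adjusted p of 0.00541 without young replicate 1. Only 1 of 78 ribosomal protein genes was called higher, against 25 without young replicate 1 and none in the fits without old vehicle replicate 1, 3, 4 or 5 or any of young replicates 2 to 6. The median log2 fold change of the 78 was 0.14, with 72 of them above 0.

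Of 17 imprinted and postnatal growth genes tested, 4 rose and 2 fell, with a median of 0.03. The rises were in Dcn, Cd24a, Cdkn1c and Mki67, and the count of rises was 2 without old vehicle replicate 3 or young replicate 1, 3, 4, 5 or 6. Igf2 and H19, imprinted growth genes that are shut down after birth, and Afp, the fetal albumin relative, did not reach the level for testing, with 54, 127 and 37 counts in old vehicle livers and 19, 393 and 59 in young livers. Most of the young H19 counts came from young replicate 2, at 29.7 CPM. Meg3, a maternally expressed RNA, was at 0.1, 0.539 and 2.06 CPM in old vehicle livers, against 2.00, 2.93 and 4.34 CPM in young livers (log2 fold change -2.08, SE 0.44, edgeR adjusted p = 0.00627), and -2.75 without old vehicle replicate 2. The old vehicle median of Meg3 lay under 1 CPM, so being tested favoured a fall. Grb10, an adaptor that restrains insulin and IGF1 receptors, was at 2.25, 3.53 and 4.42 CPM in old vehicle livers, against 4.58, 5.69 and 6.86 CPM in young livers (log2 fold change -0.74, SE 0.17, edgeR adjusted p = 0.00932). Of 41 cell cycle genes tested, 3 rose (7.32%, against 8.63% of all genes), or 5 without old vehicle replicate 6. Their median was 0.57, with 38 of the 41 above 0. The summed level of the list was 265 to 724 CPM in old vehicle livers, highest in replicate 4, against 265 to 343 CPM in young livers. Among the 3 was Pcna, the clamp of DNA replication, at 29.0, 31.6 and 37.3 CPM in old vehicle livers, against 22.6, 24.4 and 28.4 CPM in young livers (log2 fold change 0.39, SE 0.09, edgeR adjusted p = 0.00781). Of 27 p53 targets 6 rose (22.2%), 1 of which had no young library at 1 CPM, and Phlda3, an inhibitor of AKT signalling, was at 1.97, 2.56 and 3.85 CPM in old vehicle livers, against 0.495, 0.877 and 1.27 CPM in young livers (log2 fold change 1.59, SE 0.26, edgeR adjusted p = 0.00116). The young median of Phlda3 lay under 1 CPM, so being tested favoured a rise.

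Large falls outside these groups included Clec2h, Nrep and Ptgds. Clec2h, a lectin-like gene, was at 0.192, 0.437 and 1.10 CPM in old vehicle livers, against 5.65, 6.55 and 25.1 CPM in young livers (log2 fold change -4.12, SE 0.52, edgeR adjusted p = 0.000377). The old vehicle median of Clec2h lay under 1 CPM, so being tested favoured a fall. Nrep was at 3.81, 5.65 and 11.1 CPM in old vehicle livers, against 20.5, 41.4 and 83.5 CPM in young livers (log2 fold change -2.84, SE 0.39, edgeR adjusted p = 0.000831). Ptgds, the enzyme that makes prostaglandin D2, was at 0.703, 2.41 and 3.56 CPM in old vehicle livers, against 9.84, 14.7 and 20.9 CPM in young livers (log2 fold change -2.73, SE 0.31, edgeR adjusted p = 0.000151). The groups did not overlap in any of these genes, but the rule that named the largest falls took only genes without overlap. Among all 1186 genes called higher, the largest log2 fold change besides that of Sult1e1 was in Adcy1, an adenylyl cyclase that calcium stimulates, at 9.22, 32.8 and 78.1 CPM in old vehicle livers, against 0.214, 0.589 and 1.25 CPM in young livers (log2 fold change 5.83, SE 0.60, edgeR adjusted p = 0.000169). The young median of Adcy1 lay under 1 CPM, so being tested favoured a rise.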

How the data were processed

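RNA of 12 mouse livers was sequenced. The authors deposited raw read counts per gene; TopHat2 2.0.11, featureCounts and the build mm9 are named per the submitters' processing notes. The sources used here do not give strandedness, annotation or the treatment of shared reads, which leaves overlapping, antisense and paralogous genes uncertain.

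The deposited counts of the 2 groups were fitted alone in R 4.3.3 with edgeR 4.0.16 (TMM scaling, robust quasi-likelihood F-test, Benjamini-Hochberg adjustment over 13736 genes, threshold 0.05); CPM are counts divided by the library's scaled total. Totals of 8323259 to 11113307 limit genes of a few CPM, and the floor of 3 counts covers counting error only. P-values set the difference between the groups against the spread between these libraries, each taken as 1 animal. Tested on simulated data, the fit recovered 73 of 100 genes with a 2-fold change and 99 of 100 with a 4-fold change, and 9 of its 181 calls were false. DESeq2 1.42.0, limma 3.58.1, sva 3.50.0, other filters and scalings, a replicate block and leaving out each library were alternatives.

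Members and lists were chosen with earlier results of these data known. Named genes came from a rule: the 10 largest rises and 10 largest falls without overlap at 5 CPM or more, and in each list up to 4 called members of smallest adjusted p, up to 2 called against the trend and up to 2 abundant uncalled ones, plus a fixed set of checks; those that results turn on are described. Only Pdia6, Syvn1, Calr and Creld2 were added to it after their values were seen. A few genes that the rule names are not reported here.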

Additional observations from a re-analysis of the deposited data

Results flagged for a closer look

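In each group of 6 livers the highest or lowest value was compared with its nearest neighbour by Dixon's test at 95%. Of 206 groups of values tested, 24 held a library that stood apart. Normally distributed, independent values would give 1 in 20, or about 10. These CPM were not log-transformed and the genes share their libraries, so that number is only a rough guide.

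Young replicate 1 was high in folding genes of the endoplasmic reticulum, with 194 CPM of Dnajb11 (120 to 142 in the other young livers), 34.3 CPM of Derl3 (3.82 to 14.2), 2134 CPM of Hsp90b1 (1197 to 1540) and 274 CPM of Creld2 (52.1 to 123). The same library held 1479 CPM of B2m and 0.682 CPM of Sult1e1. Young replicate 2 held 29.7 CPM of H19 (0.124 to 3.65 in the other young livers), 25.1 CPM of Clec2h (5.65 to 7.52), 9.55 CPM of Id1, 28.4 CPM of Pcna and the lowest share of Mup counts, 0.517% (2.24% to 3.17%). Young replicate 5 held 1232 CPM of Ces3a.

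Among old vehicle livers, replicate 1 held 308 CPM of Sult1e1 (9.02 to 17.8 in the others), 1117 CPM of Noct (384 to 611), 10.5 CPM of Gpnmb and 9.44 CPM of H19. Old vehicle replicate 3 stood apart in the immune genes Gbp2 (60.2 CPM), Iigp1 (696 CPM) and B2m (2093 CPM), and in Phlda3 (3.85 CPM). Old vehicle replicate 5 held 303 CPM of C8a (27.5 to 71.2 in the others), 537 CPM of Cyp2c50 (59.5 to 236) and 57.9 CPM of Col3a1. Old vehicle replicate 6 held 108 CPM of Cyp2c38.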

How the results depend on the processing

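Of the called genes named here, 80 were followed across 9 other settings and 12 fits that each left out 1 library. Of these, 75 passed in every one, and none changed direction. Bank1, Ltb, Cd24a, Cdkn1c and Mki67, named above only as rises within their lists, were not among the 80. The total of 1999 called genes (1186 higher, 813 lower) was 1460 to 2324 when 1 library was left out, with 928 to 1355 higher and 532 to 1061 lower, the 532 without young replicate 5. Limma voom with quality weights called 1331 genes lower; DESeq2 called 2396 genes in all. With the replicate number as a block, 1637 genes passed (1010 higher, 627 lower), but the numbers do not pair the animals: same-numbered libraries correlated at -0.10 to 0.16, and 1 of 6 correlated best with its own number. The spread within old vehicle livers over that within young livers was 1.17 by edgeR's dispersion (1.07 to 1.29 without single libraries) and turned to 0.941 by the SD of log2 CPM; the cause was not tested. The difference in Mup share was -1.40 percentage points (-1.75 to -1.22 without single libraries), and that in ribosomal protein share 0.245 (0.190 to 0.329). Sult2a8 and Hsp90b1 passed in some settings, Hsp90b1 with adjusted p of 0.0384 to 0.128 over all of them, Canx passed with DESeq2 (0.0219) and with quality weights (0.0456), Cd207 missed with limma voom (0.0627), and DESeq2 gave no adjusted p for Sult1e1. Depth limits genes of few CPM, such as the lymphoid markers too low to test.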

Other observations

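Rises and falls lay at different expression levels. When the 13736 genes were ranked by mean CPM and cut into 4 equal bins of 3434, 13.9% of the lowest bin (median 2.38 CPM) were called higher in old vehicle livers and 1.6% lower. In the highest bin (median 79.4 CPM), 4.6% were called higher and 10.8% lower. Of the genes called higher, 74.4% in the lowest bin and 27.8% in the highest were over 2-fold.

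Gene length was also looked at, by the span of the RefSeq gene, which was matched for 93.5% of the genes. The median span was 21.9 kb for genes called higher, 27.1 kb for genes called lower and 20.04 kb for genes not called. These are descriptions across genes, which are not independent replicates.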
